A study of Homo sapiens with 3 samples.

Results

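The expression of 10 transcription factors, the *MSX1* and *MSX2* homeobox genes and 8 factors that specify or pattern the intestinal epithelium (*CDX1*, *CDX2*, *SOX9*, *HNF4A*, *ATOH1*, *GATA6*, *ELF3* and *ASCL2*), was described in HCT-116 colon carcinoma cells with and without silencing of *APC*. The genes were chosen by name, as the rows that carry these symbols among the 23131 rows of the table, and they were selected on earlier knowledge of their values in this same comparison. Their ratios are therefore a description and not a test. In both groups the *APC* gene of the cells is wild type, and their β-catenin (CTNNB1ΔSer45 in the sample labels) resists degradation. Cells received pooled anti-*APC* siRNA with a transfection reagent in 2 transfections, and RNA was taken 48 hours after the second. The control cells are titled untransfected, but their treatment label reads as reagent without siRNA. Another library, from cells given pooled scrambled siRNA, was not analysed here. Each condition was represented by 1 library of 1 cell line, so no difference below has a replicate check, and effects of *APC* silencing, of siRNA delivery and of the single library cannot be told apart from the 2 libraries analysed here.

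MSX proteins are homeodomain repressors that are best known as mediators of BMP and WNT signals in the limb, tooth and neural crest. In the gut, CDX2 and CDX1 are caudal homeodomain proteins that give the epithelium its intestinal identity, HNF4A is a nuclear receptor that maintains enterocyte genes, and GATA6 is a zinc finger factor of endoderm. SOX9 and ASCL2 are WNT-responsive factors of the crypt base, where ASCL2 marks stem cells, ATOH1 is the basic helix-loop-helix factor that commits progenitors to the secretory lineages, and ELF3 is an epithelial ETS factor associated with differentiation.

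Levels were given as FPKM (fragments per kilobase, relative to library size), which divides by length and so lets genes be compared within a library. The targeted gene, *APC*, was at 9.15 FPKM in the untransfected library and 3.43 FPKM in the anti-*APC* library, a 2.66-fold lower level. *AXIN2*, a feedback inhibitor and standard reporter of WNT activity, was at 4.11 and 28.7 FPKM, a log2 ratio of 2.81. No read counts were listed, but the steps that whole reads leave in low-valued genes gave estimates of 25300000 reads in untransfected and 23100000 reads in anti-*APC* cells. From these depths and transcript lengths the reads behind each gene were estimated, and the 95% ranges given for ratios cover counting error only. A gene was taken as expressed when its mean over both libraries was at least 1 FPKM and neither value was 0, which left 12063 genes with a median log2 ratio (anti-*APC* over untransfected) of -0.05 and quartiles of -0.24 and 0.11. All 7 markers of epithelial cells, among them *EPCAM*, *KRT8* and *CDH1*, were above 12 FPKM in both libraries. Of 12 markers of fibroblasts, endothelium and blood cells, 10 were below 1 FPKM in both, and *COL1A1* (2.85 and 3.08 FPKM) and *CD68* (8.91 and 5.01 FPKM) were the exceptions.

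Of the 10 factors, 7 were expressed and 3 (*CDX1*, *ATOH1* and *ASCL2*) were at or near 0 in both libraries. With anti-*APC* siRNA *MSX1* was 3.02-fold higher, *SOX9* was 1.46-fold higher and *ELF3* was 2.62-fold lower, whereas *MSX2* and *CDX2* differed by no more than their counting error. *HNF4A* and *GATA6*, both of low level, had log2 ratios of 0.44 and 0.32. At a threshold of 1.5-fold, 1 of the 7 was higher, against 2.56% of all expressed genes, and 1 of the 7 was lower, against 6.61% of all expressed genes. These genes were picked with the ratios known, so nothing is read from the comparison with those shares. The median log2 ratio of the 7 was 0.32. Of the 10 factors, *SOX9* was the nearest below the threshold, and *MSX1* and *ELF3* were the 2 beyond it.

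**Figure D1:**
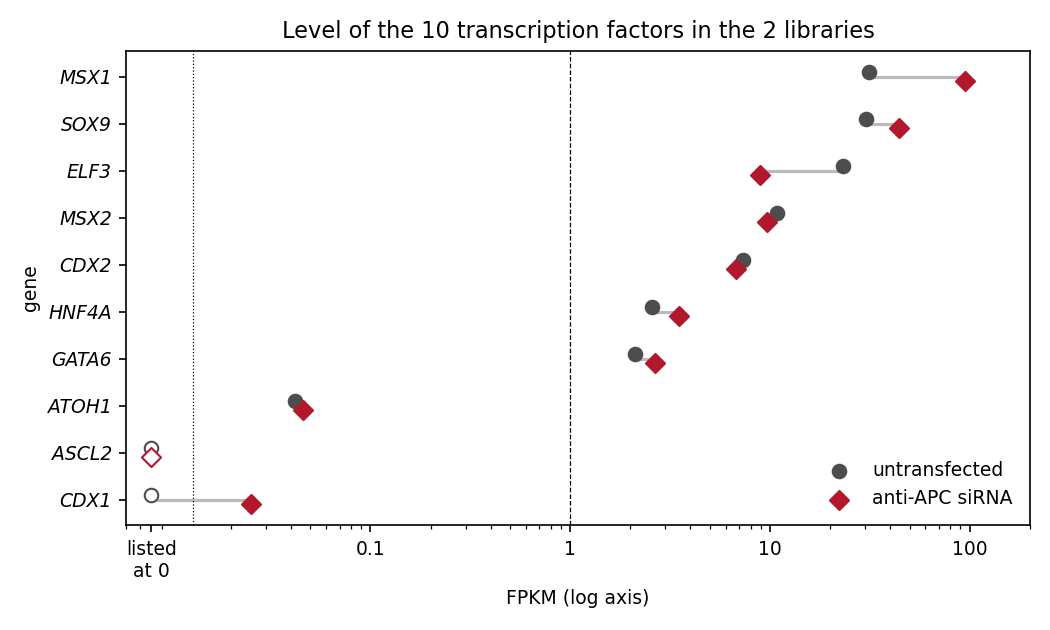
Level of each of the 10 factors (rows) on a log axis of FPKM, with circles for the untransfected and diamonds for the anti-*APC* siRNA library, 1 library each and so without error bars. Open symbols at the left edge are values listed at 0, and the dashed line is 1 FPKM. *MSX1* moves right from 31.3 to 94.7 FPKM and *ELF3* moves left from 23.3 to 8.90 FPKM, while the symbols of *MSX2* and *CDX2* nearly coincide.

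*MSX1* had 31.3 FPKM in the untransfected library and 94.7 FPKM in the anti-*APC* library. It was the most abundant of the 10 factors in both libraries and stood 63.4 FPKM higher after silencing. The log2 ratio was 1.60 with a counting range of 1.51 to 1.68, from an estimated 1533 and 4233 reads. Its ratio was the 36th highest of the 12063 expressed genes, and by level *MSX1* stood at the 72.6 percentile of expressed genes without and the 91.3 percentile with anti-*APC* siRNA. Its paralog *MSX2* had 10.8 FPKM in the untransfected and 9.70 FPKM in the anti-*APC* library. The 2 values of *MSX2* were close, with a log2 ratio of -0.16 and a counting range of -0.33 to 0.02 that includes no change. The level of *MSX1* relative to *MSX2* went from 2.89 to 9.76, so the pair diverged 3.37-fold between the libraries. Both are compact genes of 2 exons: *MSX1* lies on the plus strand of GRCh37 at chr4:4861392-4865663 and *MSX2* on the plus strand at chr5:174151585-174157899. No other gene of the annotation overlaps either of them.

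RefSeq promoters were matched for 7 of the 10 factors (8 start sites, because *HNF4A* has 2). No entry was used for *CDX1*, *SOX9* and *ASCL2*. The 250 bases before each start were searched for words bound by TCF7L2, for the CCAAT box and for the TATA box. The TCF7L2 words were AACAAAG, the variant ATCAAAG, the variant TACAAAG and the variant TTCAAAG, on both strands. The CCAAT box was read on both strands, and the TATA box as TATAAA on the sense strand (that with the sequence of the RNA) only. In this order, such words occurred in 11.96%, 32.0% and 6.80% of all 35116 RefSeq windows of this length. The windows of the MSX pair are shown because the pair diverged in expression. Capitals mark the words found, and sequences run 5′ to 3′ on the sense strand of RefSeq GRCh38.p14, with *MSX1* at chr4:4859415-4859664 and *MSX2* at chr5:174724332-174724581, both plus strand.
MSX1: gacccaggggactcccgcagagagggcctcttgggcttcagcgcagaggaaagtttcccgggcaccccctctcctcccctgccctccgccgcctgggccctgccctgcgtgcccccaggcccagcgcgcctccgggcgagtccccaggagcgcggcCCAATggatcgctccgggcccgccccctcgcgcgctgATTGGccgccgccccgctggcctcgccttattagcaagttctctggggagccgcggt
MSX2: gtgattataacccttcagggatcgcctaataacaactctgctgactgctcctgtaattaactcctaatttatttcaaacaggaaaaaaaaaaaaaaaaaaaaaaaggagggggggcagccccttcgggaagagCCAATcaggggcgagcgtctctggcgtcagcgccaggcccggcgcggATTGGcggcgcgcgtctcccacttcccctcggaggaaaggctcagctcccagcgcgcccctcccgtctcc
Each window held a CCAAT box in either orientation: 94 and 57 bases before the start of *MSX1*, and 117 and 70 bases before that of *MSX2*. Neither held a TCF7L2 word or a TATA box, which says nothing of sites outside these windows. The *MSX1* window had a GC content of 74.0% and that of *MSX2* 55.6%, where the median over all windows was 58.0%.

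*SOX9* had 30.4 FPKM in the untransfected library and 44.5 FPKM in the anti-*APC* library. This put it beside *MSX1* at the top of the 10 factors in untransfected cells, where their ratio of 1.03 had a counting range of 0.970 to 1.10 and the order of the pair was not resolved. After silencing *MSX1* stood 2.13-fold above *SOX9*. The log2 ratio of *SOX9* was 0.55 with a counting range of 0.48 to 0.62, which spans the 1.5-fold threshold, and it was the 341st highest ratio of the expressed genes. When the median ratio of all expressed genes was set to 0, *SOX9* passed 1.5-fold, with a log2 ratio of 0.60. *SOX9* lies at chr17:70117161-70122557 (GRCh37, plus strand, 3 exons) within the antisense gene *SOX9-AS1*, for which no value was used, and the use of strand in the read assignment is not stated in the sources used here.

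*ASCL2*, the other crypt-base factor, was listed at 0 in both libraries. A count of 0 allows up to 3 reads, which for this gene of 2 exons (chr11:2289728-2291818, GRCh37, minus strand) is 0.0799 FPKM in the untransfected and 0.0875 FPKM in the anti-*APC* library. No change of *ASCL2* could have been seen below those levels.

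*CDX2* had 7.33 FPKM in the untransfected and 6.77 FPKM in the anti-*APC* library. The log2 ratio was -0.12, and its counting range of -0.33 to 0.10 corresponds to between 0.794 and 1.07 of the untransfected level. Its paralog *CDX1* was listed at 0 in untransfected cells and at 0.0253 FPKM with anti-*APC* siRNA, about 1 read. A count of 0 allows 0.0670 FPKM of *CDX1* in the untransfected library, so both values were under what could be measured and no fold is given. *CDX2* (chr13:28535055-28543452, GRCh37, minus strand, 3 exons) is shown because it is one of the 2 factors whose promoter window held a TCF7L2 word. The window is at chr13:27969316-27969565 of GRCh38.p14, minus strand.
CDX2: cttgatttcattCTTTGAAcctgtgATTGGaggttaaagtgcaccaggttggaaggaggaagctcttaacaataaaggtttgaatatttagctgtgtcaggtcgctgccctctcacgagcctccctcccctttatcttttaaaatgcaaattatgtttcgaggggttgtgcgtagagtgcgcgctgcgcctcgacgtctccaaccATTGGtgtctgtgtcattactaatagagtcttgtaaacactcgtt
The capitals mark, in order, a TCF7L2 word on the opposite strand 238 bases before the start and 2 CCAAT boxes on the opposite strand, at 225 and 45 bases. The other factor with a TCF7L2 word was *ATOH1*, at 148 bases before the start, where it overlaps a CCAAT box. Of the 8 windows, 2 held a TCF7L2 word and 7 a CCAAT box.

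*HNF4A* had 2.58 FPKM in the untransfected and 3.49 FPKM in the anti-*APC* library, a log2 ratio of 0.44 with a counting range of 0.16 to 0.71. *GATA6* had 2.12 FPKM and 2.65 FPKM, a log2 ratio of 0.32 with a counting range of 0.02 to 0.62. Both of these endoderm factors were somewhat higher after silencing, and both rested on few reads, between 180 and 249 in a library. The value of *HNF4A* is 1 sum over transcripts from both of its promoters, so it does not show which promoter was used. *HNF4A* spans chr20:42984339-43061485 on the plus strand of GRCh37. Its row shared a locus with the microRNA gene *MIR3646*, which was listed at 0 in both libraries. In the annotation *HNF4A* also overlaps *HNF4A-AS1* on the opposite strand, for which no value was used. *GATA6* spans chr18:19749550-19782491, also on the plus strand, and overlaps *GATA6-AS1* on the opposite strand, for which no value was used.

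*ELF3* had 23.3 FPKM in the untransfected library and 8.90 FPKM in the anti-*APC* library. In untransfected cells it stood above *MSX2*, and after silencing *MSX2* stood 1.09-fold above it with a counting range of 0.967 to 1.23. The log2 ratio was -1.39 with a counting range of -1.52 to -1.26, from an estimated 1828 and 638 reads, and the ratio was the 62nd lowest of the expressed genes. *ELF3* spans chr1:201977073-201986311 on the plus strand of GRCh37. It overlaps *ELF3-AS1* on the opposite strand and an unnamed lncRNA gene on its own strand, for which no value was used. Its promoter window is shown because *ELF3* was the only one of the 10 factors at least 1.5-fold lower, and it lies at chr1:202010337-202010586 of GRCh38.p14, plus strand.
ELF3: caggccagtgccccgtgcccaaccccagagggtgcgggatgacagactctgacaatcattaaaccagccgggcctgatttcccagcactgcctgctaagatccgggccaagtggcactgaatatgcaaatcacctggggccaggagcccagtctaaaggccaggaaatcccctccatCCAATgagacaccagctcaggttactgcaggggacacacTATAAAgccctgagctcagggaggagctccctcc
The capitals mark a CCAAT box 73 bases and a TATA box 34 bases before the start. *ELF3* was the only one of the 7 matched factors whose window held a TATA box.

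**Figure D2:**
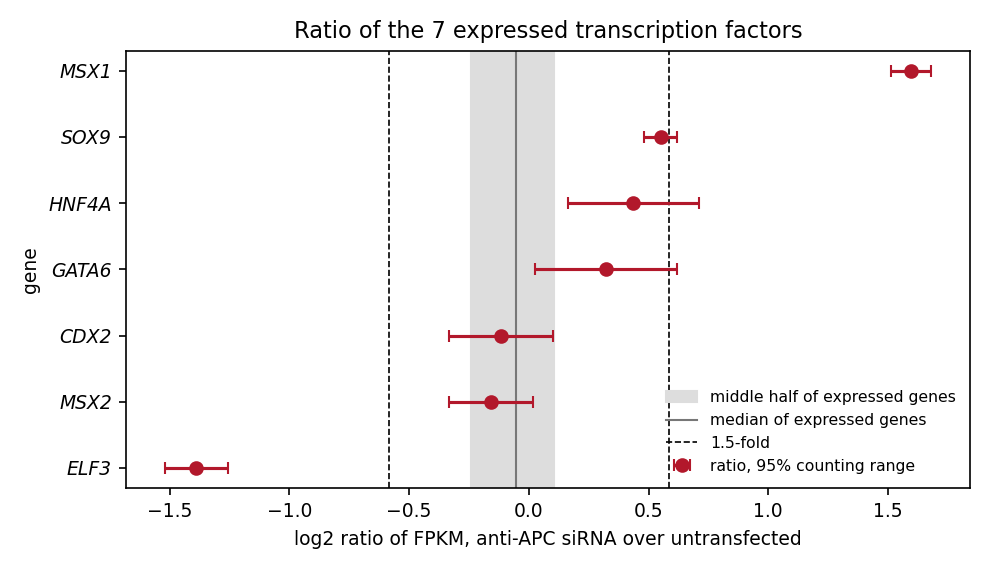
Log2 ratio of FPKM (anti-*APC* siRNA over untransfected) of the 7 expressed factors, with bars for the 95% counting range. The grey band runs between the quartiles of all expressed genes (-0.24 to 0.11), the grey line their median and the dashed lines 1.5-fold. *MSX1* and *ELF3* lie beyond the dashed lines with their whole bars, the bar of *SOX9* crosses the upper line, and the bars of *MSX2* and *CDX2* cross 0.

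*ATOH1* was listed at 0.0420 FPKM in the untransfected and 0.0460 FPKM in the anti-*APC* library. These values correspond to an estimated 1.13 reads in each library. Of the 1147 genes that Cuffdiff did not test and that were above 0 in both libraries, 992 had a mean under 1 FPKM and 155 a higher one. A log2 ratio within 0.005 of 0.13, the ratio that equal reads in both libraries give, was found in 238 of the 1147, all but 1 of them with a mean under 1 FPKM, and *ATOH1* had 0.13. Further genes fell on the ratios of 1 to 2 reads (103 genes) and 2 to 1 reads (90 genes). Both values were under the 0.111 and 0.122 FPKM that a count of 0 allows, so a difference in *ATOH1* was not detectable at this depth and no fold is given. *ATOH1* is a gene of 1 exon at chr4:94749904-94752115 (GRCh37, plus strand).

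**Figure D3:**
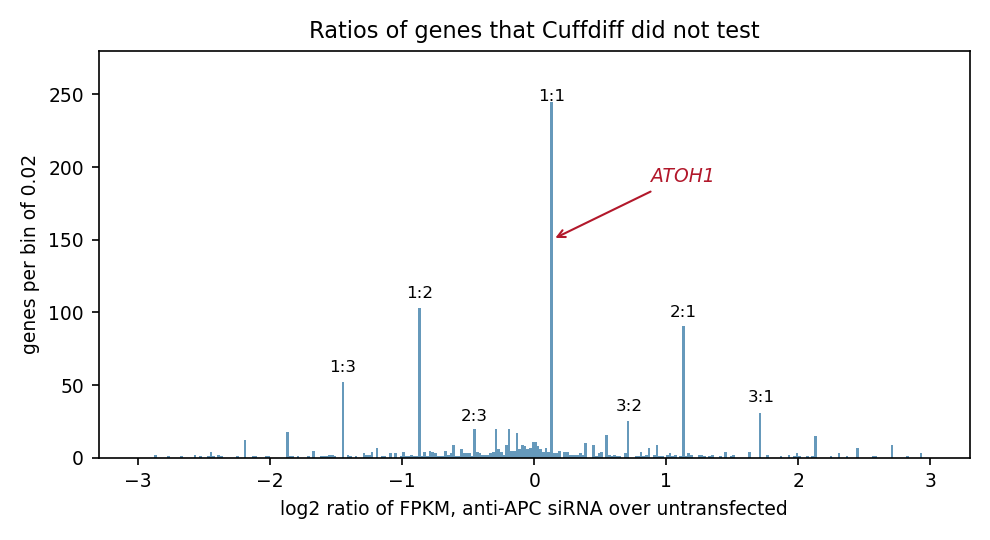
Number of genes (bins of 0.02) against their log2 ratio of FPKM, within the plotted range, for the 1147 genes of any level that Cuffdiff left untested and that were above 0 in both libraries. Labels give the reads in the anti-*APC* and the untransfected library. The tallest peak, at 0.13, holds 238 genes with equal reads, *ATOH1* among them.

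By level, the order in untransfected cells was *MSX1*, *SOX9*, *ELF3*, *MSX2*, *CDX2*, *HNF4A* and *GATA6*, followed by the 3 factors near 0. The neighbours *MSX1* and *SOX9*, and *HNF4A* and *GATA6* (ratio of levels 1.21, counting range 0.988 to 1.49), did not differ beyond counting error. After silencing the order was *MSX1*, *SOX9*, *MSX2*, *ELF3*, *CDX2*, *HNF4A* and *GATA6*, and *MSX2* and *ELF3* were the neighbours that did not differ. Summed over the 10 factors, the level was 108 FPKM in untransfected and 171 FPKM in silenced cells. *MSX1* and *SOX9* together made up 57.2% of this sum in untransfected cells and 81.5% after silencing. Of this pair, *MSX1* went from 31.3 to 94.7 FPKM and *SOX9* from 30.4 to 44.5 FPKM. *SOX9* rose by a smaller factor than the sum, so the gain in share was that of *MSX1* alone. In libraries from whole cultures, fewer cells that express a gene and less RNA of it per cell cannot be told apart.

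**Figure D4:**
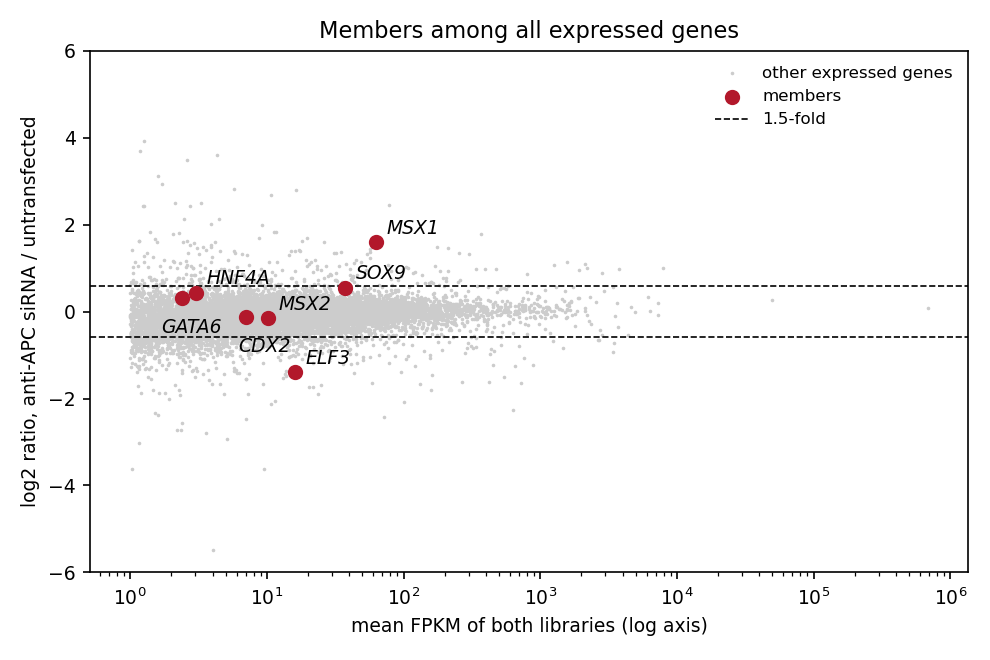
Log2 ratio of FPKM (anti-*APC* siRNA over untransfected) against the mean FPKM of both libraries (log axis) for the 12063 expressed genes, with the 7 expressed factors in red and 1.5-fold as dashed lines. *MSX1*, at a mean of 63.0 FPKM, and *ELF3*, at 16.1 FPKM, lie beyond the dashed lines, and the other 5 lie within them.

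The genes closest to *MSX1* over the 2 libraries, by distance on the log2 scale, were *TANK* (30.9 and 83.4 FPKM, untransfected and anti-*APC*), *MIR589* (31.7 and 81.4 FPKM) and *MYL9* (33.9 and 79.9 FPKM). Those closest to *ELF3* were *SCNN1A* (20.0 and 9.83 FPKM), *SNORA75* (19.6 and 9.46 FPKM) and *KLK6* (20.7 and 10.3 FPKM). With 2 libraries this likeness is only that of level and ratio. *MIR589* and *SNORA75* are short RNA genes, for which FPKM is a poor measure of level.

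Among 20 paralogs of the factors, 19 had a row, 8 were expressed, 2 were at least 1.5-fold higher and 1 was lower. The shares over all expressed genes were 2.56% higher and 6.61% lower. Like the lists below, the paralogs were chosen with earlier results of these data known, so nothing is read from their counts. *SOX4*, a SOX factor of progenitor cells, went from 17.5 to 44.7 FPKM, a 2.55-fold higher level. *SOX9* stood 1.73-fold above *SOX4* in untransfected cells and level with it, at 0.995, after silencing. *EHF*, the epithelial ETS factor most closely related to *ELF3* in this group, went from 12.9 to 5.69 FPKM, a 2.27-fold lower level. *ELF3* was thus left at 0.382 and *EHF* at 0.441 of the untransfected level, and the ratio of *ELF3* to *EHF* was 1.81 without and 1.56 with anti-*APC* siRNA. *ELF1*, a broadly expressed ETS factor, went the other way, from 18.7 to 28.9 FPKM. The HNF4 paralog *HNF4G* was at 2.24 and 1.80 FPKM, with *HNF4A* slightly higher after silencing and *HNF4G* slightly lower.

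Of 21 other homeobox genes related to *MSX1*, 6 were expressed, none was at least 1.5-fold higher and *DLX4* (4.41 and 2.91 FPKM) was lower. The shares over all expressed genes were 2.56% and 6.61%. The highest ratio was that of *DLX1* (0.977 and 1.35 FPKM), and the most abundant was *HHEX* (8.56 and 7.88 FPKM). Of 33 further intestinal transcription factors 16 were expressed, with a median log2 ratio of -0.15. None of these was at least 1.5-fold higher and 1 was at least 1.5-fold lower. *PRDM1* had the highest ratio (1.29 and 1.66 FPKM), and the most abundant were *TCF7L2* (53.0 and 47.6 FPKM), the main TCF factor of the colon, and *PPARG* (46.4 and 34.1 FPKM).

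Markers of differentiated cells were mostly near 0 in both libraries, as were *CDX1* and *ATOH1*. Of 26 absorptive cell markers, which include targets of CDX2 and HNF4A, 2 were expressed and 9 were listed at 0 in both libraries. *CA2*, a carbonic anhydrase, was 2.29-fold lower (30.0 and 13.1 FPKM), and *USH1C*, a brush border scaffold, was at 4.04 and 2.76 FPKM. Of 19 secretory cell markers, which include targets of ATOH1, none was expressed, and the highest single value was 1.07 FPKM, of *DLL1*. Of 20 crypt stem cell markers 13 were expressed, 2 were at least 1.5-fold higher and 3 lower, against 2.56% and 6.61% of all expressed genes. Among those not expressed, *RNF43* was listed at 0 in both libraries in a row that Cuffdiff marked as failed, so its level is not known. *AXIN2* had the highest ratio, *EPHB2* the lowest (4.10 and 1.59 FPKM), and *CDCA7* (55.2 and 51.3 FPKM) and *PTK7* (29.5 and 27.7 FPKM) were the most abundant. *LGR5* (0.0271 FPKM in the untransfected library and listed at 0 in the other) and *OLFM4* (listed at 0 in both) were as low as *ASCL2*.

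All 7 epithelial markers were lower after silencing by some amount, in the same direction as *ELF3*, with a median log2 ratio of -0.41. They ranged from 1.11-fold lower (*EPCAM*, 190 and 170 FPKM) to 1.57-fold lower (*CDH1*, 19.0 and 12.1 FPKM). The median of all expressed genes was also negative, at -0.05. Of the 7, only *CDH1* was at least 1.5-fold lower, against 6.61% of all expressed genes. *KRT8* (588 and 478 FPKM) and *KRT18* (461 and 337 FPKM) were the most abundant. *ELF3* was lower than any of them by ratio. Whether these markers have a part in the ratio of *ELF3* was not tested.

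**Figure D5:**
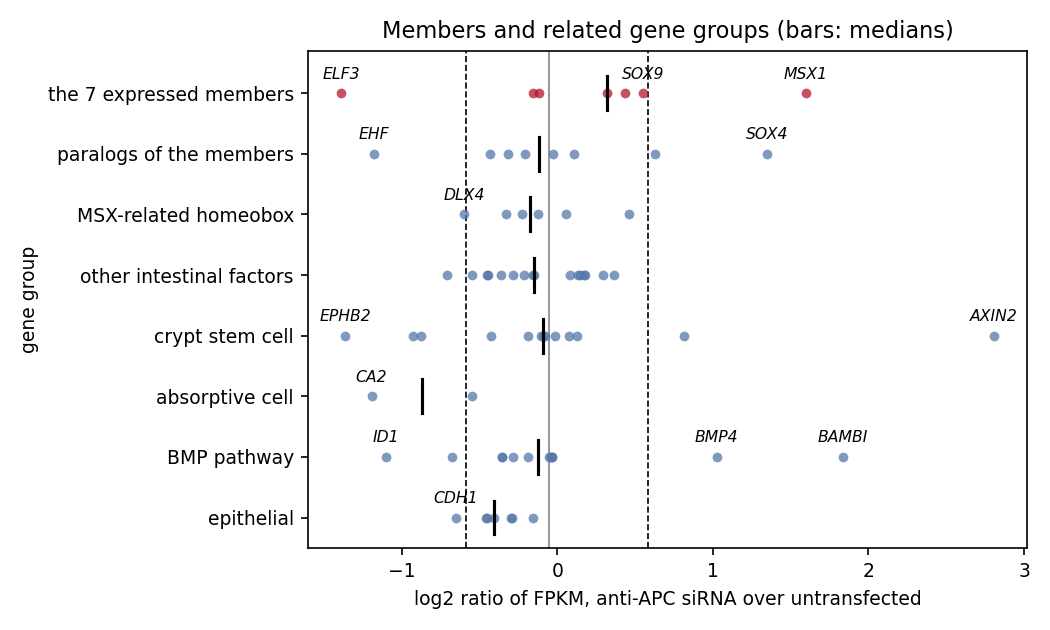
Log2 ratio of FPKM (anti-*APC* siRNA over untransfected) of the expressed genes in 8 groups (rows), 1 point a gene, with a black bar for the group median, a grey line for the median of all expressed genes and dashed lines at 1.5-fold. Red points are the 7 expressed factors, from *ELF3* at -1.39 to *MSX1* at 1.60. *SOX4* and *EHF* lie near them among the paralogs, and the epithelial points all lie left of 0.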

How the data were processed

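RNA from HCT-116 cells was sequenced in single-read TruSeq libraries, 1 for each of 3 conditions. The values the authors deposited are FPKM (named RPKM in the title of the table) for the anti-*APC* siRNA and the untransfected library, made with Cufflinks and Cuffdiff, with hg19 named in the submitters' processing notes. The aligner, annotation, versions and any further scaling are not given in the sources used here. The table also holds the authors' own log ratio, test statistic, p, q and call, and none of these was used. The library from scrambled siRNA was left out. In 269 rows that Cuffdiff marked as failed both values are 0, so a 0 can be a failed estimate. None of the 10 factors is among those rows.

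Ratios are plain ratios of FPKM. With 1 library per condition no test was run. A gene was expressed at a mean of at least 1 FPKM with both values above 0. In another 134 rows the mean was at least 1 FPKM and 1 value was 0, and these have no ratio. Depth was estimated from 210 genes, untested by Cuffdiff and all but 1 with a mean under 1 FPKM, whose ratio fixed their reads as 1 and 2 or 1 and 3, with exonic lengths of the GENCODE 44 canonical transcript on GRCh37 clipped to the listed locus. Quartiles were 22300000 and 26800000 reads for the untransfected and 20400000 and 24400000 for the anti-*APC* library. Without the 1 gene of higher level, an alternative chosen after seeing the data, the medians were again 25300000 and 23100000 reads. Counting ranges are exact Clopper-Pearson intervals (95%) of 1 library's share of the reads, and the lengths affect them but not the ratios. Gene coordinates are 1-based, from GENCODE 44 on GRCh37, and promoters are from RefSeq.

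The 10 factors and the 9 gene lists were chosen with earlier results of these data known. Named genes are the factors, *APC*, *AXIN2*, genes overlapping a factor, the 3 genes nearest to *MSX1* and *ELF3*, and in each list the highest and lowest ratio and the 2 highest levels. One gene that this rule names is not reported here. *LGR5*, *OLFM4*, *RNF43*, *DLL1*, *HNF4G*, *ID3* and *BMPR2* were named after their values were seen. Alternatives were other pseudocounts, filters, folds and scalings. The depth estimate, the counts past the fold and the counting ranges were tested on simulated reads. Those reads had counting error only, known lengths and planted changes larger than the threshold. The simulation therefore does not test the transcript lengths assumed here or any spread beyond counting error. Tools were scipy 1.17.1, pandas 2.3.3, numpy 2.4.6, Biopython 1.88 and matplotlib 3.10.9 under Python 3.11.15.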

Additional observations from a re-analysis of the deposited data

How the results depend on the processing

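The log2 ratios of the 8 factors above 0 in both libraries kept their sign under pseudocounts of 1 and 0.1. They also kept it after median centring and after division by the worth of 1 read. That division gives the plain ratio of reads, without scaling for library size. In 30 of these 32 values the change was within the counting range. The exceptions were *MSX1* (1.47) and *SOX9* (0.42) after that division. The values of *ATOH1* carry no information here. With about 1 read in each library its counting range was -6.16 to 6.43, and after that division its log2 ratio was 1.05e-04. *SOX9* sets the count of factors at least 1.5-fold higher, which was 2 after centring. Of the 12063 expressed genes, 353 were higher and 652 lower after centring. A smaller threshold, 0.32 on the log2 scale, gave 3 factors higher, 865 genes higher and 2219 lower, and 24 lower genes in the 9 lists. A fold of 2 gave 115 genes higher and 165 lower, and 4 lower in the lists. Without a filter on level 1084 genes were higher and 2078 lower, with 12 and 30 in the lists. With a mean of at least 5 FPKM the counts were 186 higher and 347 lower, with 6 lower in the lists. With a pseudocount of 1, 448 genes were lower, 7 of them in the lists. The main counts were 309 higher and 797 lower of 12063 expressed genes (2.56% and 6.61%), with 6 and 11 in the lists. The lists hold 177 genes, of which only a part was expressed, and nothing is read from their counts. The median level percentile of the 7 expressed factors was 42.6 (untransfected) and 38.8 (anti-*APC*), and 57.5 and 54.7 over all rows above 0 in both libraries. The alternative with scrambled siRNA as the control was not run. No paired analysis was possible because each condition has 1 library. The floor of 3 reads limits what can be said of *CDX1*, *ATOH1* and *ASCL2*.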

Other observations

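Genes of the BMP pathway, a known regulator of *MSX1* and *MSX2*, differed in both directions between the libraries. Of 19 genes 12 were expressed, with a median log2 ratio of -0.12. Of these, 2 were at least 1.5-fold higher and 2 were at least 1.5-fold lower, against 2.56% and 6.61% of all expressed genes. *BAMBI*, a decoy receptor that dampens BMP and TGF-beta signals, went from 4.95 to 17.7 FPKM, a 3.57-fold higher level that was above that of *MSX1* by ratio. The ligand *BMP4* was at 68.5 FPKM in untransfected and 139 FPKM in silenced cells, a 2.03-fold higher level. *ID1*, a standard BMP target that encodes an inhibitor of basic helix-loop-helix factors, was lower at 65.8 FPKM, from 141 FPKM, and its relative *ID3* was at 21.8 FPKM, from 34.9 FPKM. The ligand *BMP4* and the target *ID1* thus differed in opposite directions between these 2 libraries, and *MSX1* and *MSX2* differed in ratio. The 6 expressed receptor and SMAD genes of the list were all slightly lower, at most by 1.22-fold (*BMPR2*).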
